A study of Solanum lycopersicum with 12 samples.

Results

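The NAC genes of stress and senescence, 9 in number, were followed through the roots of 2 tomato genotypes with and without aluminium (Al). They are 9 of 35768 gene models in the deposited table. The members were taken by identifier: JA2 (Solyc12g013620.2, chromosome 12), JA2L (Solyc07g063410.3, chromosome 7), NAP1 (Solyc05g007770.3, chromosome 5), NAP2 (Solyc04g005610.3, chromosome 4), ORE1S02 (Solyc02g088180.3, chromosome 2), ORE1S03 (Solyc03g115850.3, chromosome 3), ORE1S06 (Solyc06g069710.3, chromosome 6), NAC1 (Solyc04g009440.3, chromosome 4) and NAC4 (Solyc11g017470.2, chromosome 11). Their names come from published nomenclature and are not in the table, and chromosome numbers are those inside the identifiers. All 9 had a row.

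The groups were slstop1 mutant roots at 60 µM Al, wild type (WT) roots at 60 µM Al, slstop1 roots at 0 µM Al and WT roots at 0 µM Al, with 3 biological replicates each, 12 libraries in all. Every plant was 20 days old and every solution was at pH 4.7. The mutant is impaired in SlSTOP1, the tomato counterpart of a zinc finger transcription factor that Arabidopsis needs to tolerate acid and Al. The sample titles mark the mutant libraries as KO. Beyond that label, the sources used here do not give the kind of mutation, the number of mutant lines or the length of exposure.

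NAC proteins are a large plant family of transcription factors, with a conserved DNA-binding domain at the amino end and a variable regulatory part at the other. Many are switched on by drought, salt, abscisic acid or jasmonate, and a subset drives the orderly breakdown of ageing leaves. Most of what is known of these 9 genes was learned in leaves, guard cells and fruit, while the samples here were roots.

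Expression values carry no stated unit and were read as FPKM, fragments scaled to transcript length and library total. On that reading levels can be compared between genes. A gene was tested if it reached 1 FPKM in at least 3 libraries, which 15903 gene models did. Of the NAC genes 8 passed, and each of them reached 1 FPKM in at least 5 of the 6 libraries without Al, so none depended on Al to be tested. ORE1S06 did not pass. A gene passed the test with a Benjamini-Hochberg adjusted p under 0.05 over all tested genes, from limma on log2(FPKM + 1).

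Library facts that bear on these values are few. The absolute depth is unknown, since FPKM is already divided by it, and libraries had 12227 to 14753 gene models at 1 FPKM or more. SlSTOP1 (Solyc11g017140.2) lay between 27.6 and 30.0 FPKM in slstop1 against 80.8 to 88.6 FPKM in WT with Al, and between 33.5 and 39.8 FPKM in slstop1 against 56.0 to 79.2 FPKM in WT without Al. Both differences passed the test (log2 -1.52 and -0.91), but the second lost the call in 11 of 19 alternative settings. The 4 root genes (SHR, SCR, FER, ASFT) summed to 17.3 to 37.9 FPKM in slstop1 and 117 to 151 FPKM in WT with Al, and to 64.3 to 65.9 FPKM in slstop1 and 76.6 to 92.6 FPKM in WT without Al. None of the 4 was at 0 throughout, and with Al all 4 passed as lower in slstop1 than in WT. The sum hides genes that moved in opposite directions. ASFT averaged 74.2 FPKM in WT with Al against 3.44 FPKM without, while SHR and SCR passed as lower with Al in both genotypes. FER averaged 48.5 FPKM in WT with Al and 51.2 FPKM without, and passed as lower with Al only in slstop1. The 3 small-subunit Rubisco genes, as leaf markers, summed to 56.3 to 76.9 FPKM in slstop1 and 13.3 to 27.1 FPKM in WT with Al, and to 9.48 to 46.5 FPKM in slstop1 and 13.8 to 42.7 FPKM in WT without Al. RBCS2A carried nearly all of this sum. The part of either marker list in the results below was not tested.

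The question asked of Al was which of the NAC genes respond in each genotype. Every tested NAC gene was higher with Al, and the rise was large: JA2, JA2L and NAP1 stood 26.2 to 27.7 times higher in slstop1 and 31.8 to 60.2 times higher in WT (ratios of mean FPKM). NAP2 and NAC1 rose 9.21 and 13.4 times in slstop1 and 19.0 and 22.2 times in WT. ORE1S02, ORE1S03 and NAC4 rose 8.06 to 11.1 times in slstop1 and 10.8 to 13.4 times in WT. All 8 tested genes passed as higher in both genotypes, where 21.3% of all tested genes passed as higher in slstop1 and 21.9% in WT; 45.5% and 39.0% passed as lower. The median log2 change of the 8 was 3.59 in slstop1 and 4.37 in WT, beside -0.46 and -0.27 for all tested genes. The list was chosen with earlier results of these data known, so these shares describe the list and do not test it. In whole roots, more of the cells that express a gene and more transcript per cell cannot be told apart.

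**Figure D1:**
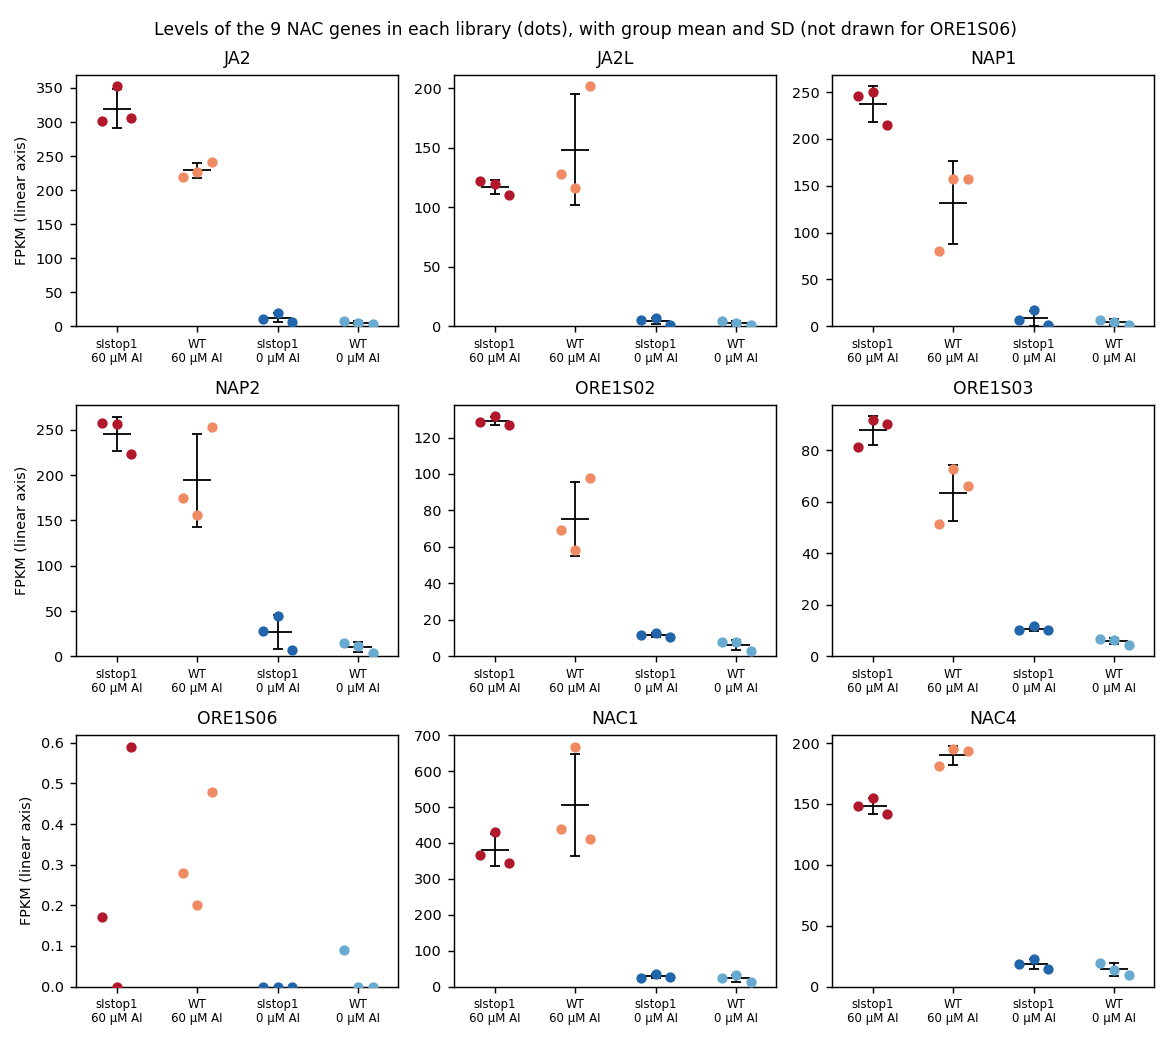
FPKM (linear axis, a scale for each gene) of the 9 NAC genes in each library (dots, replicates 1 to 3 from left to right) of the 4 groups, with group mean and SD (bars, not drawn for ORE1S06). In all panels but that of ORE1S06, which stays under 1 FPKM, the libraries with 60 µM Al lie far above those with 0 µM Al.

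JA2 and JA2L are a pair of related NAC genes described in tomato guard cells. JA2 promotes closure of stomata through abscisic acid synthesis, and JA2L promotes their reopening by lowering salicylic acid. JA2 had 301, 352 and 306 FPKM in slstop1 with Al, against 10.3, 19.4 and 6.81 FPKM in slstop1 without Al. In WT it had 219.6, 226 and 241 FPKM with Al, against 7.11, 5.31 and 3.37 FPKM without Al. No library with Al came near one without. The log2 change was 4.71 ± 0.308 in slstop1 (SE; limma adjusted p = 3.11e-07) and 5.24 ± 0.308 in WT (adjusted p = 3.17e-07). JA2L read 122, 119 and 110.1 FPKM in slstop1 with Al, against 4.98, 6.93 and 1.37 FPKM in slstop1 without Al. Its WT values were 128, 116 and 202 FPKM with Al, against 3.95, 2.72 and 0.73 FPKM without Al. In WT, replicate 3 with Al held the highest JA2L value of its group. Replicate 3 without Al, a separate library, held the lowest of its own group. The log2 change of JA2L was 4.61 ± 0.457 in slstop1 (adjusted p = 5.44e-06) and 5.52 ± 0.457 in WT (adjusted p = 2.59e-06).

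NAP1 and NAP2 are tomato counterparts of Arabidopsis NAP, a driver of leaf senescence. In tomato leaves NAP2 acts on chlorophyll breakdown and abscisic acid genes. NAP1 had 246, 250.0 and 215 FPKM in slstop1 with Al, against 6.71, 17.2 and 1.75 FPKM in slstop1 without Al. WT libraries had 80.5, 158 and 157 FPKM with Al, against 6.85, 4.69 and 0.89 FPKM without Al. The groups did not overlap in either genotype, though the libraries without Al differed widely. Its log2 change was 5.03 ± 0.646 in slstop1 (limma adjusted p = 3.80e-05) and 4.85 ± 0.646 in WT (adjusted p = 7.08e-05). In slstop1 it was 5.69 without replicate 2 and 4.32 without replicate 3 of the libraries at 0 µM Al. NAP2 had 257, 256 and 224 FPKM in slstop1 with Al, against 27.9, 44.8 and 7.30 FPKM in slstop1 without Al. Its WT values were 175, 155 and 253 FPKM with Al, against 15.2, 11.5 and 4.01 FPKM without Al. Again no library with Al reached down to those without. The log2 change of NAP2 was 3.47 ± 0.566 in slstop1 (adjusted p = 0.000230) and 4.25 ± 0.566 in WT (adjusted p = 7.16e-05).

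The 3 ORE1 type genes are relatives of Arabidopsis ORE1, a senescence regulator whose transcript is cut by a microRNA, miR164. ORE1S02 had 129, 132 and 127 FPKM in slstop1 with Al, against 11.9, 12.7 and 10.4 FPKM in slstop1 without Al. WT gave 69.4, 58.4 and 97.6 FPKM with Al, against 8.07, 7.78 and 2.76 FPKM without Al. The mutant replicates were close to each other at both doses. The log2 change of ORE1S02 was 3.36 ± 0.302 in slstop1 (limma adjusted p = 2.67e-06) and 3.48 ± 0.302 in WT (adjusted p = 3.64e-06). ORE1S03 had 81.5, 91.8 and 90.1 FPKM in slstop1 with Al, against 10.2, 11.7 and 10.1 FPKM in slstop1 without Al. In WT the values were 51.4, 72.6 and 66.0 FPKM with Al, against 6.72, 6.36 and 4.49 FPKM without Al. Its log2 change was 2.93 ± 0.167 in slstop1 (adjusted p = 1.43e-07) and 3.23 ± 0.167 in WT (adjusted p = 1.56e-07). ORE1S06 was at or near 0 everywhere, with 0.17, 0 and 0.59 FPKM in slstop1 and 0.28, 0.20 and 0.48 FPKM in WT with Al, and with 0 in all slstop1 libraries and 0.09, 0 and 0 FPKM in WT without Al. It was not tested, and a listed 0 can be a failed estimate.

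NAC1 and NAC4 are stress and ripening regulators of tomato; NAC1 is also known for its part in infection by a geminivirus. NAC1 was the most abundant of the 9 by group mean in all 4 groups. It had 366, 429 and 345 FPKM in slstop1 with Al, against 24.1, 34.6 and 26.2 FPKM in slstop1 without Al. WT libraries had 439, 668 and 409.6 FPKM with Al, against 25.0, 31.5 and 11.8 FPKM without Al. With Al the WT group mean was above the slstop1 mean, though the libraries overlapped. The log2 change of NAC1 was 3.71 ± 0.311 in slstop1 (limma adjusted p = 1.66e-06) and 4.48 ± 0.311 in WT (adjusted p = 7.86e-07). NAC4 had 148, 154 and 142 FPKM in slstop1 with Al, against 18.1, 22.9 and 14.2 FPKM in slstop1 without Al. WT gave 181, 195 and 193 FPKM with Al, against 19.4, 13.8 and 9.23 FPKM without Al. Replicates with Al were tight in both genotypes. Its log2 change was 2.97 ± 0.229 in slstop1 (adjusted p = 9.10e-07) and 3.71 ± 0.229 in WT (adjusted p = 4.03e-07).

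For all 8 genes every library with Al lay above every library without, in slstop1 and in WT; the same held for 26.2% and 22.7% of all tested genes. The 8 passed as higher under all 19 alternative settings in both genotypes, with log2 changes of 2.56 to 5.69 in slstop1 and 2.65 to 6.09 in WT. Scaling by median of ratios moved the median change of all tested genes from -0.46 to -0.09 in slstop1 and from -0.27 to -0.07 in WT. It turned the split of all calls from 31.9% higher to 46.9% higher in slstop1 and from 35.9% to 46.7% in WT. The median change of the 8 genes under it was 4.05 in slstop1 and 4.61 in WT.

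Averaged over a group, the 8 genes exceeded between 87.2% and 98.6% of all tested genes with Al, against between 21.4% and 74.9% without. The 9 genes summed to 1559 to 1785 FPKM in slstop1 and 1344 to 1649 FPKM in WT with Al, against 78.2 to 170.3 FPKM in slstop1 and 37.3 to 92.3 FPKM in WT without Al. JA2 on average exceeded 97.7% of tested genes in slstop1 with Al and 54.2% in slstop1 without, and 96.4% in WT with Al and 36.9% in WT without. JA2L exceeded 93.1% of tested genes in slstop1 with Al and 31.0% without, and 94.0% in WT with Al and 21.4% without.

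The order of levels differed between the groups. In slstop1 with Al the order by mean was NAC1 (380.0 FPKM), JA2 (319.8 FPKM), NAP2 (246 FPKM), NAP1 (237 FPKM), NAC4 (148 FPKM), ORE1S02 (129 FPKM), JA2L (117 FPKM), ORE1S03 (87.8 FPKM) and ORE1S06. The ranges of neighbours over the libraries of this group overlapped for NAC1 with JA2 and for NAP2 with NAP1, and the other ranges were apart. Within each library, though, NAC1 exceeded JA2 and NAP2 exceeded NAP1. In WT with Al the order was NAC1 (506 FPKM), JA2 (229 FPKM), NAP2 (194 FPKM), NAC4 (189.8 FPKM), JA2L (149 FPKM), NAP1 (132 FPKM), ORE1S02 (75.1 FPKM), ORE1S03 (63.4 FPKM) and ORE1S06. Only the ranges of NAC1 and JA2 and those of ORE1S03 and ORE1S06 were apart there. Within each library NAP1 also exceeded ORE1S02. Without Al in slstop1 the order was NAC1 (28.3 FPKM), NAP2 (26.7 FPKM), NAC4 (18.4 FPKM), JA2 (12.2 FPKM), ORE1S02 (11.7 FPKM), ORE1S03 (10.7 FPKM), NAP1 (8.55 FPKM), JA2L (4.43 FPKM) and ORE1S06. In WT without Al it was NAC1 (22.8 FPKM), NAC4 (14.2 FPKM), NAP2 (10.2 FPKM), ORE1S02 (6.20 FPKM), ORE1S03 (5.86 FPKM), JA2 (5.26 FPKM), NAP1 (4.14 FPKM), JA2L (2.47 FPKM) and ORE1S06. The ranges of neighbours overlapped throughout both lists without Al, except those of JA2L and ORE1S06 at the foot. Several of these neighbours still kept their order within each library.

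**Figure D2:**
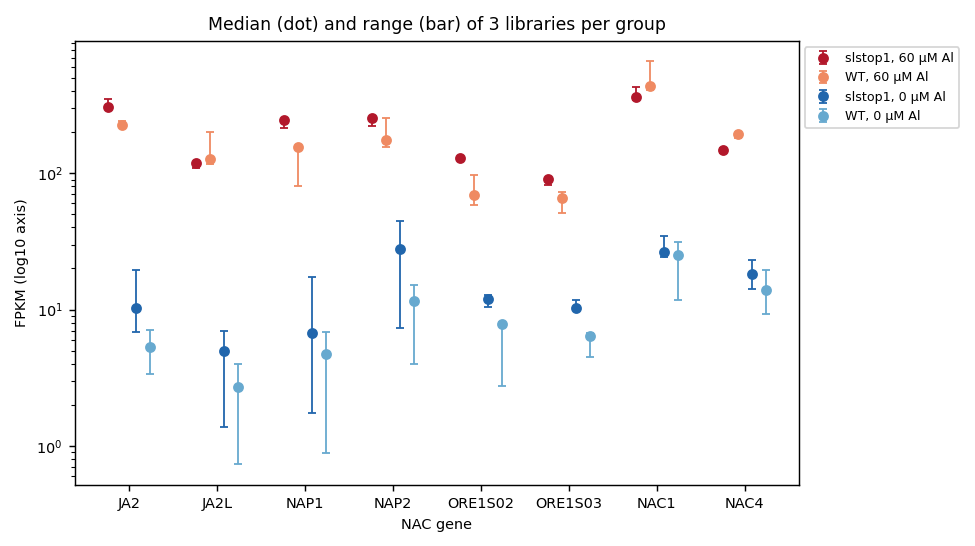
Median (dot) and range (bar) of FPKM over the 3 libraries of each group, on a log10 axis, for the 8 tested NAC genes. Levels with 60 µM Al run from 51.4 to 668 FPKM, and those with 0 µM Al from 0.73 to 44.8 FPKM with wider bars for NAP1, NAP2 and JA2L.

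Whether the mutant differed from WT was asked at each dose. No NAC gene passed between genotypes with Al, where 1.12% of tested genes passed as higher in slstop1 and 8.12% as lower. At an unadjusted limma p under 0.05 there were 2, ORE1S02 and ORE1S03, both higher in slstop1, where 3.84% of tested genes were higher and 20.2% lower at that threshold. Over the alternatives the count of NAC genes under 0.05, in either direction, ran from 0 to 5. The 5 included NAC4, which was lower in slstop1. The mutant libraries of both genes lay above every WT library with Al, at 127 to 132 FPKM in slstop1 against 58.4 to 97.6 FPKM in WT for ORE1S02, and at 81.5 to 91.8 FPKM in slstop1 against 51.4 to 72.6 FPKM in WT for ORE1S03. JA2 and NAP1 were also above WT in every library, while NAC4 was below WT in every library; 7.85% of tested genes were wholly above and 26.8% wholly below. JA2L, NAP2 and NAC1 overlapped between genotypes.

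The log2 difference with Al was 0.81 ± 0.302 for ORE1S02 (SE; limma adjusted p = 0.129; 95% interval 0.14 to 1.47) and 0.48 ± 0.167 for ORE1S03 (adjusted p = 0.107; 0.11 to 0.84). Median-of-ratios scaling brought both past the threshold (1.02, adjusted p = 0.0384, and 0.69, adjusted p = 0.0200), and both passed when replicate 3 of WT without Al was left out (adjusted p = 0.0119 and 0.0383). ORE1S03 passed with quantile normalisation too (0.55, adjusted p = 0.0482). Over all 19 alternatives the adjusted p ran from 0.0119 to 0.310 for ORE1S02 and from 0.0200 to 0.307 for ORE1S03. JA2 differed by 0.48 ± 0.308 (adjusted p = 0.385; -0.20 to 1.16), and it passed only when the 6 libraries with Al were fitted alone (adjusted p = 0.0480; range over alternatives 0.0480 to 0.646). NAP1 differed by 0.90 ± 0.646 (adjusted p = 0.441; -0.52 to 2.33) and NAC4 by -0.35 ± 0.229 (adjusted p = 0.387; -0.86 to 0.15). For NAP2, JA2L and NAC1 the differences were 0.36 (-0.88 to 1.61), -0.30 (-1.31 to 0.71) and -0.38 (-1.07 to 0.30). The intervals leave room for differences in either direction for NAP1, NAP2, JA2, JA2L, NAC1 and NAC4. The median of the 8 was 0.42, beside -0.16 for all tested genes, and under median-of-ratios scaling 0.64 beside -0.01.

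**Figure D3:**
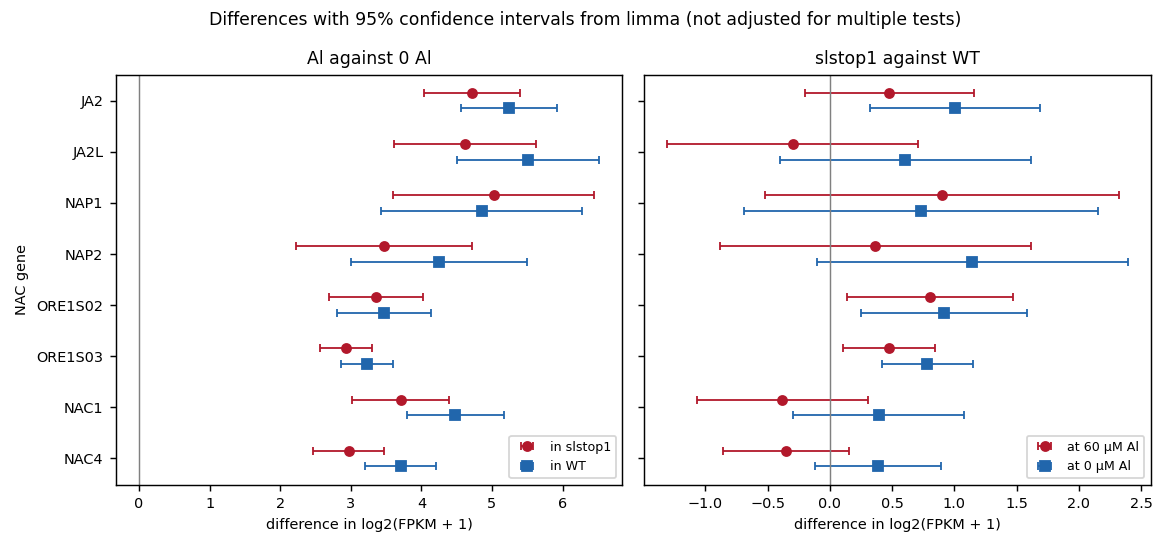
Difference in log2(FPKM + 1) with its 95% confidence interval from limma for the 8 tested NAC genes, for Al against 0 Al in slstop1 and in WT (left) and for slstop1 against WT at 60 and at 0 µM Al (right). All Al differences lie between 2.93 and 5.52, while the genotype differences lie between -0.38 and 1.15 and most of their intervals reach 0.

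Without Al the 8 genes were all higher on average in slstop1, and none passed. The 8 moved together between replicates of these groups, as described below, so their signs are not separate results. The background there was 0.0692% of tested genes passing as higher in slstop1 and 0.107% as lower. At an unadjusted limma p under 0.05 there were 3, JA2, ORE1S02 and ORE1S03, all higher in slstop1, beside 3.40% of tested genes higher and 2.02% lower. Over the alternatives that count ran from 2 to 7. ORE1S03 differed by 0.78 ± 0.167 on the log2 scale (adjusted p = 0.189; 95% interval 0.42 to 1.15), ORE1S02 by 0.92 ± 0.302 (adjusted p = 0.572; 0.25 to 1.58) and JA2 by 1.01 ± 0.308 (adjusted p = 0.503; 0.33 to 1.68). Only for ORE1S02 and ORE1S03 did slstop1 and WT libraries not overlap, at 10.4 to 12.7 FPKM in slstop1 against 2.76 to 8.07 FPKM in WT and at 10.1 to 11.7 FPKM in slstop1 against 4.49 to 6.72 FPKM in WT; 4.77% of tested genes were wholly higher. NAP2 differed by 1.15 ± 0.566 (adjusted p = 0.986), and its 7.30 to 44.8 FPKM in slstop1 overlapped the 4.01 to 15.2 FPKM in WT. The median of the 8 was 0.76, beside 0.01 for all tested genes.

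These differences without Al moved when single libraries were left out. Without replicate 3 of WT at 0 µM Al the log2 difference was 0.50 for ORE1S02, 0.63 for ORE1S03, 0.77 for JA2 and 0.64 for NAP2. It was then 0.17 for JA2L, 0.13 for NAC4, 0.12 for NAP1 and -0.0016 for NAC1, whose sign turned. Without replicate 2 of slstop1 at 0 µM Al it was 0.07 for NAP1, 0.22 for NAC4, 0.24 for NAC1, 0.25 for JA2L, 0.62 for NAP2 and 0.63 for JA2, and 0.86 for ORE1S02 and 0.72 for ORE1S03. Without replicate 3 of slstop1 at 0 µM Al it was higher, at 1.86 for NAP2, 1.43 for NAP1, 1.33 for JA2 and 1.12 for JA2L. No NAC gene passed without any 1 of these libraries.

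Whether Al acted differently in the 2 genotypes was tested by the interaction, the Al change in slstop1 minus that in WT. No NAC gene passed, where 0.0503% of tested genes had a higher and 0.975% a lower response in slstop1. NAC4 alone had an unadjusted limma p under 0.05, with an interaction of -0.74 ± 0.324 on the log2 scale (adjusted p = 0.354; 95% interval -1.45 to -0.03), where 11.7% of tested genes were lower and 1.55% higher at that threshold. Over the alternatives its unadjusted p ran from 0.00521 to 0.107, and the count of NAC genes under 0.05 from 0 to 4. The 4 were NAC4, JA2, JA2L and NAP2, without replicate 3 of slstop1 at 0 µM Al. The value was negative for 7 of 8 genes and 0.17 ± 0.914 for NAP1. Here, too, the signs are not separate results. For JA2L it was -0.91 ± 0.646 (adjusted p = 0.590; -2.33 to 0.52), and -1.42 to -0.47 with 1 library left out. For NAP2 it was -0.78 ± 0.801, and -1.49 to -0.26 with 1 library left out. The median of the 8 was -0.63, beside -0.18 for all tested genes, and -0.41 beside -0.03 with median-of-ratios scaling. Seen from the levels, NAC1, NAC4 and JA2L had higher means in slstop1 than in WT without Al and lower means in slstop1 than in WT with Al.

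Libraries of the same group differed more for these genes without Al than with it, most of all for NAP1, NAP2 and JA2L. The highest library exceeded the lowest by a factor of 9.83 for NAP1, 6.14 for NAP2 and 5.06 for JA2L in slstop1 without Al, and by 7.70, 3.78 and 5.41 for the same genes in WT without Al. Levels were also lower without Al, down to 0.89 FPKM for NAP1, 4.01 FPKM for NAP2 and 0.73 FPKM for JA2L in WT. The factor was not taken for all tested genes, and the part of low level in it was not tested. With Al the factor lay between 1.04 and 1.24 for the 8 genes in slstop1 and between 1.08 and 1.96 in WT. Replicate 2 of slstop1 without Al was the highest of its group for 8 of 8 genes, and replicate 3 the lowest for 7 of 8. These libraries were highest for 33.3% and lowest for 28.0% of all tested genes. In WT without Al, replicate 3 was the lowest for 8 of 8 genes and for 54.6% of all tested genes. The median deviation of the 8 genes from their group mean in that library was -0.81 on the log2 scale, beside -0.14 for all tested genes. It was 0.52 in replicate 2 and -0.49 in replicate 3 of slstop1 without Al, beside -0.01 and 0.02 for all tested genes. The smallest factors of the 8 in slstop1 without Al were 1.22 for ORE1S02 and 1.15 for ORE1S03.

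**Figure D4:**
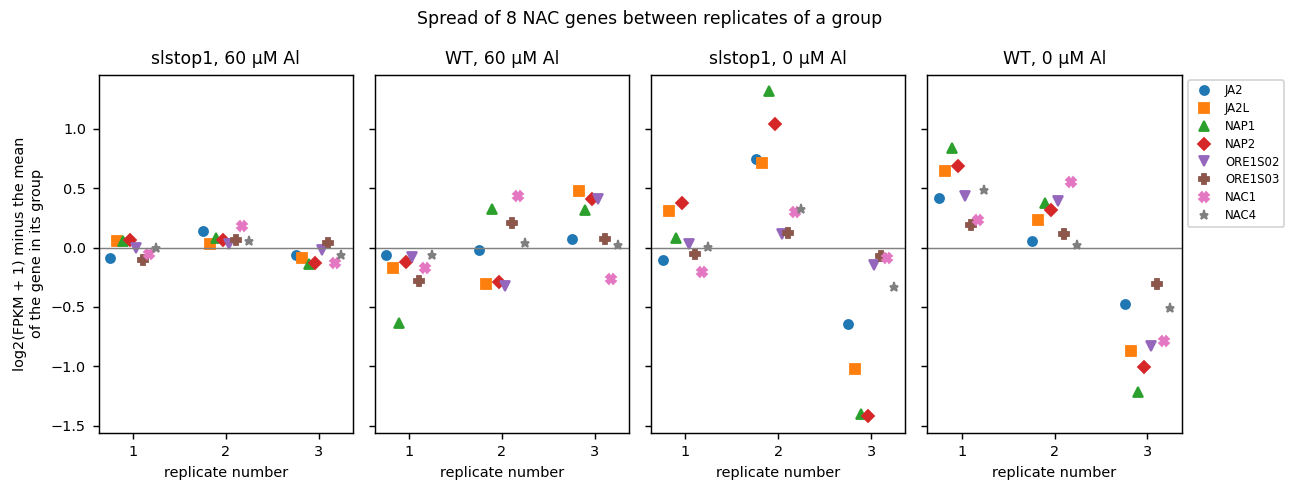
Deviation of log2(FPKM + 1) from the mean of the gene in its group (vertical axis) for the 8 tested NAC genes, by replicate number, in the 4 groups. Without Al the genes move together between replicates, down to -1.42 in replicate 3 of slstop1 and to -1.21 in replicate 3 of WT, while with Al in slstop1 they stay between -0.14 and 0.18.

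Likeness of profile was measured as the root mean square difference of log2(FPKM + 1) over the 12 libraries, each gene centred on its own mean, as a description. ORE1S02 and ORE1S03 were each other's nearest NAC gene (0.34), as were JA2 and JA2L (0.41). The nearest NAC gene to NAP1 was JA2 (0.47), not NAP2, whose own nearest was ORE1S02 (0.55). NAC4 was nearest to ORE1S03 (0.39) and NAC1 to NAC4 (0.46). The farthest pair were NAP1 and ORE1S03 (1.14). Genes outside the list were closer still for each of the 8, by 2 genes for JA2L and 85 for NAC4. The closest of all were Solyc05g006780.3 to ORE1S03 (0.18) and Solyc08g068690.1 to NAC4 (0.21), both without a name in the table. The others were Solyc01g109710.3 for JA2 (0.23), Solyc02g086300.3 for JA2L (0.34), Solyc04g040180.3 for NAC1 (0.23), Solyc02g078500.2 for NAP1 (0.40), Solyc03g117675.1 for NAP2 (0.28) and Solyc03g006700.3 for ORE1S02 (0.23). With Al, Solyc05g006780.3 averaged (FPKM ± SD, n = 3 each) 69.6 ± 4.56 in slstop1 and 47.6 ± 2.78 in WT, and without Al 8.34 ± 2.15 in slstop1 and 5.41 ± 1.69 in WT. The median distance of all tested genes was 1.81 from ORE1S03 and 2.82 from NAP1. All profiles share the same 12 libraries and are ruled by the step between doses.

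Genes tied to these factors in published work were taken as 5 short lists, 20 genes in all, of which 11 passed the filter. The identifiers of these genes, too, come from published nomenclature and not from the table. PAO and NCED2 reached 1 FPKM only with Al, so their passing the filter already required a difference, and they are left out of the counts. Of the other 9, with Al 5 were higher, 1 lower and 3 not called in slstop1, and 7 were higher, 1 lower and 1 not called in WT, beside 21.3% of all tested genes higher in slstop1 and 21.9% in WT. These lists, too, were chosen with earlier results of these data known, so the counts do not test them. In the chlorophyll breakdown list NYC1 and SGR1 were higher in both genotypes. NYC1 (Solyc07g024000), a chlorophyll b reductase, averaged 171 ± 5.15 FPKM in slstop1 and 117 ± 23.5 FPKM in WT with Al, against 26.7 ± 5.98 FPKM in slstop1 and 19.2 ± 10.3 FPKM in WT without Al (SD, n = 3 each; log2 2.66 and 2.70; limma adjusted p = 6.68e-05 in slstop1 and 8.45e-05 in WT). PAO, a later enzyme of the pathway, had 5.33 to 6.72 FPKM in slstop1 and 5.12 to 7.89 FPKM in WT with Al, against 0.34 to 0.66 FPKM in slstop1 and 0.17 to 0.75 FPKM in WT without Al. SGR1, which frees magnesium from chlorophyll, rose by 0.83 in slstop1 and 1.47 in WT. SAG12, a protease gene used as a marker of leaf senescence, stayed under 1 FPKM in every library.

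Of 6 abscisic acid genes 3 were tested. NCED1 (Solyc07g056570), the synthesis gene that JA2 acts on in guard cells, read 5.14, 3.46 and 4.88 FPKM in slstop1 and 9.29, 7.72 and 8.13 FPKM in WT with Al, against 1.23, 1.56 and 0.52 FPKM in slstop1 and 1.09, 0.85 and 0.30 FPKM in WT without Al. WT was above slstop1 in every library with Al. NCED1 rose by 1.40 ± 0.247 in slstop1 and by 2.45 ± 0.247 in WT on the log2 scale (SE); its genotype difference with Al, -0.78, did not pass (limma adjusted p = 0.0756). NCED2 had 2.30 to 4.07 FPKM in slstop1 and 0.85 to 1.47 FPKM in WT with Al, against 0.22 to 0.38 FPKM in slstop1 and 0.16 to 0.44 FPKM in WT without Al. With Al it was called higher in slstop1 than in WT (0.92, limma adjusted p = 0.0170). It needed the slstop1 libraries with Al to pass the filter, so nothing is drawn from that call. TAS14, a dehydrin, rose in WT (1.68) and was not called in slstop1 (0.45, adjusted p = 0.294). It was low without Al, at 0 to 1.33 FPKM in slstop1 and 0.19 to 1.09 FPKM in WT. Neither its interaction (-1.23, limma adjusted p = 0.333) nor its genotype difference with Al (-1.11, limma adjusted p = 0.0858) passed. SAMT1, the salicylate methyltransferase gene tied to JA2L, stayed under 1 FPKM in every library. The jasmonate regulator MYC2 passed in neither genotype, at 0.44 in slstop1 and 0.58 in WT, and the receptor gene COI1 rose by 0.42 in WT and was 0.25 in slstop1, not called. The interaction of COI1 (-0.17) did not pass. Upstream of ORE1 in Arabidopsis stand EIN2 and EIN3 of ethylene signalling. Tomato EIN2 fell by 0.93 in slstop1 and by 0.50 in WT, and EIL3 rose by 1.20 in both. EIL1, at 0 in every library, and EIL2, under 1 FPKM in every library, were listed too but not tested.

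**Figure D5:**
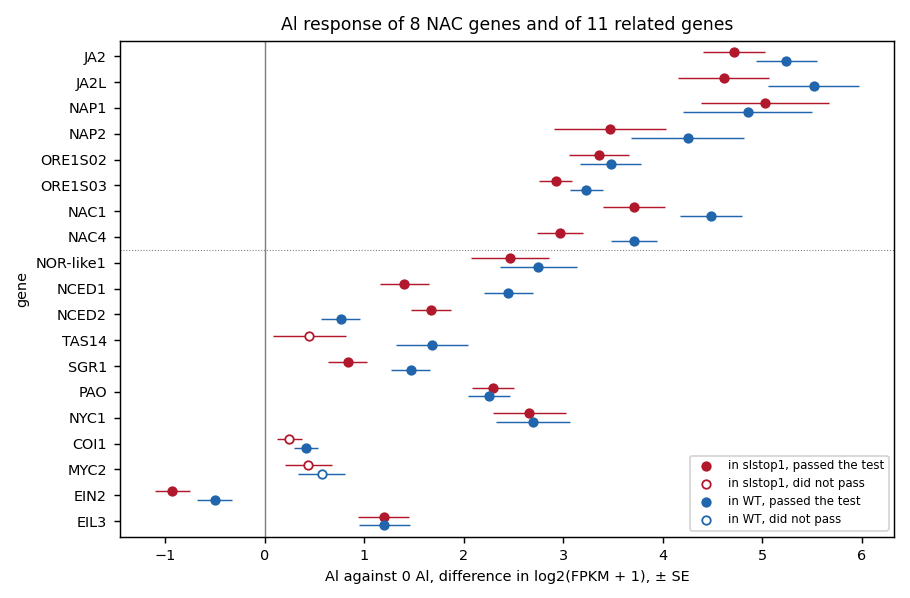
Al against 0 Al as a difference in log2(FPKM + 1) with its SE, in slstop1 and in WT, for the 8 tested NAC genes (above the dotted line) and for 11 tested genes of related pathways (below). The NAC genes lie between 2.93 and 5.52; the related genes lie between -0.93 for EIN2 and 2.75 for NOR-like1. PAO and NCED2 reached 1 FPKM only with Al.

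Among 3 other NAC genes only NOR-like1 (Solyc07g063420), whose identifier is the next after that of JA2L, was tested. It had 32.0, 35.8 and 30.1 FPKM in slstop1 and 30.4, 30.2 and 39.1 FPKM in WT with Al, against 4.03, 7.99 and 3.94 FPKM in slstop1 and 5.22, 7.42 and 1.46 FPKM in WT without Al. It rose by 2.47 ± 0.390 in slstop1 and by 2.75 ± 0.390 in WT (SE; limma adjusted p = 0.000181 and 0.000111). NOR, the ripening regulator, and GOBLET, which sets organ boundaries, stayed under 1 FPKM in every library.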

How the data were processed

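Total RNA of tomato roots was sequenced in 12 libraries, per the labels, and grouped by sample title. The authors deposited 1 table of 35768 gene models by 12 libraries. Its header names no unit, and the deposited values were read as FPKM because they carry decimals and sum to between 696287 and 719916 per library. Per the submitters' processing notes the tools included Cufflinks, StringTie, HISAT2 and TopHat2, with no version or role. The sources used here give no genome build. Because FPKM shares out a library's total, abundant transcripts that rise lower the values of the rest. Sequencing depth is unknown and no counting error can be stated.

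The scale was log2(FPKM + 1), on which changes of low genes are understated, and 15903 genes at 1 FPKM or more in at least 3 of 12 libraries were tested. With limma 3.58.1 in R 4.3.3, 1 mean was fitted per group (eBayes with a trend, 8 residual degrees of freedom, all groups sharing the spread). Tests were two-sided with Benjamini-Hochberg adjustment over all tested genes and no fold minimum. The procedure was also run on simulated data with noise drawn independently for each gene, unlike the joint shifts of the NAC genes between replicates here. No result above rests on that run. Errors are limma's standard errors, and confidence intervals are for single genes. Figures were drawn with matplotlib 3.10.9 in Python 3.11.15.

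The members and gene lists were chosen with earlier results of these data known. A genotype contrast averaged over both Al doses was also tried, after the values of ORE1S02 and ORE1S03 had been seen; it was not part of the planned tests and is not reported. All 9 members are named. Of the other lists, results are given as counts, with values for some genes picked after they were seen, and the nearest profile outside the list is named for each of the 8 tested members. Other settings tried were a pseudocount of 0.1 or of 5, no filter on low values, median-of-ratios scaling, quantile normalisation, a replicate block, a fit on the 6 libraries of a comparison alone, and each library left out in turn. The reference gene table (assembly SLM_r2.1) matched 0 of the identifiers used.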

Additional observations from a re-analysis of the deposited data

How the results depend on the processing

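Of 152 values for Al in slstop1 and 152 in WT, over 8 NAC genes and 19 alternatives, all kept their direction and their call, with adjusted p up to 0.00178 and 0.000666. Leaving out 1 library gave 8 genes higher each time. Between genotypes with Al the count of NAC genes called higher in slstop1 was 0; it was 2 with median-of-ratios scaling, 1 after quantile normalisation, 1 (JA2) when the 6 libraries with Al were fitted alone, and 0 to 2 when 1 library was left out, the 2 being without replicate 3 of WT without Al. The cause was not tested. No NAC gene was called between genotypes without Al or for the interaction under any alternative run. The interaction of NAP1, 0.17, was -0.00051 with a pseudocount of 0.1 and ran from -0.53 to 0.83 when 1 library was left out. That of ORE1S02, -0.11, was 0.16 with a pseudocount of 5, 0.11 with median-of-ratios scaling, and ran from -0.33 to 0.30. The difference of NAC1 without Al, 0.39, ran from -0.0016 to 0.67. The change of SlSTOP1 in slstop1 with Al was 0.16 with median-of-ratios scaling, against -0.30 without scaling; neither was called. Whether same-numbered libraries were paired is unknown, and the main fit did not pair them. Their deviations from the group means correlated at -0.24 to 0.09 over 18 pairs. Libraries with different numbers ranged from -0.24 to 0.26, so these correlations cannot settle the pairing. With the replicate block, 8 NAC genes were called higher for Al in each genotype and 0 between genotypes, so it changed no call of a NAC gene; it took the call of SlSTOP1 without Al (adjusted p = 0.0779).

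Counts over all tested genes moved more. With Al 1469 genes were called between genotypes, 783 after quantile normalisation, 910 in the 6 libraries alone and 580 to 2401 with 1 library left out. Without Al there were 28, with 8 under the replicate block, 10 in the 6 libraries compared and 7 to 48 with 1 left out. The interaction had 163, with 100 and 63 under the 2 scalings, 69 under the block and 53 to 357 with 1 left out. With the scalings 37.3% and 35.9% of the calls with Al were higher in slstop1, against 12.1% without scaling. Depth is unknown, and 3 libraries a group leave wide intervals for NAP1, NAP2 and JA2L.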

Other observations

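The ratio of NAP1 to NAP2 in FPKM was 0.955 to 0.977 in slstop1 and 0.460 to 1.01 in WT with Al, and 0.240 to 0.384 in slstop1 and 0.222 to 0.452 in WT without Al. The ratio of JA2 to JA2L was 2.47 to 2.95 in slstop1 and 1.20 to 1.94 in WT with Al, and 2.07 to 4.97 in slstop1 and 1.80 to 4.62 in WT without Al. These ratios were not tested.

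NAC4 lies near the mutated gene by its identifier: the table holds 32 gene models between NAC4 and SlSTOP1 on chromosome 11. The name NAC4 is used for more than 1 gene. In the reference gene table the symbol NAC4, with the synonym NAC3, belongs to the neighbour of JA2L on chromosome 7, while here NAC4 is the chromosome 11 gene. The symbols JA2, JA2L, NAC1, NAP1 and NAP2 stand in that table on the chromosomes that the identifiers give.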
